A study of Mus musculus with 10 samples.

Results

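Trimethylated lysine 4 of histone H3 (H3K4me3), a mark of active promoters, was compared with the monomethylated form (H3K4me1), a mark of enhancers and of the borders of promoters, in Glast+ cells from retinas of C57BL/6 mice at postnatal day 28. Glast is a glutamate transporter, the product of Slc1a3, and marks Müller glia, the radial glia that span the retina. The marks were mapped by chromatin immunoprecipitation and sequencing (ChIP-seq) in 2 experiments each, Exp1 and Exp2. These are 4 of the 10 libraries of the series, chosen by the antibody in their labels, and 4 lists of enriched stretches, called islands, result. The labels give 1 strain, 1 age and no treatment or genetic change, so the comparison is between marks and between genes within 1 cell population. They do not say how pure the cells were, which sex the animals had, or whether the experiments used separate animals, and part of the spread between them may be technical.

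Mono- and trimethylation occupy the same residue, so no single histone tail carries both. Islands of both at a position can come from the other tail of a nucleosome, from its neighbours, from the other allele or from other cells of the population, and these cannot be told apart here. H3K4me3 is written mainly by the Setd1 and Kmt2a/b complexes, which bind unmethylated CpG dinucleotides, and H3K4me1 at enhancers mainly by Kmt2c and Kmt2d. Kdm1a and Kdm1b remove the lower methylation states, and the Kdm5 enzymes remove the higher ones. In many tissues H3K4me3 sits at the start of active genes with H3K4me1 on its shoulders, and stretches with H3K4me1 away from gene starts are candidate enhancers, active or poised.

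Gene starts and their sequences came from RefSeq promoters (GRCm38.p6, the build with the coordinates of mm10), which list 21263 starts of 17492 protein-coding genes, 79.9% of the 21887 on the chromosomes in the lists. A start was counted as marked where an island came within 1 kb of it. The 100 bases before 9 starts are printed to show the promoter classes that follow, 5′ to 3′ on the strand of the gene, with CpG dinucleotides in capitals. Neurod1 and Sox2, which encode transcription factors of neurons and of neural progenitors and glia, had both marks and CpG-rich promoters. Nrl and Crx, the transcription factor genes of photoreceptors, had both marks on CpG-poor promoters. Slc1a3 and Rlbp1, which encodes a retinaldehyde-binding protein of Müller glia, had H3K4me3 alone over the bases covered in both experiments. Olig2, an oligodendrocyte and motor neuron factor, and Ptgds, which encodes prostaglandin D2 synthase, had H3K4me1 alone. Aif1, a microglial gene, had neither mark.
Neurod1, chr2:79456637-79456736, minus strand: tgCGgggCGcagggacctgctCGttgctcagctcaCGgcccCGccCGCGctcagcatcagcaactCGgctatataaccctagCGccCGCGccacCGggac
Sox2, chr3:34649895-34649994, plus strand: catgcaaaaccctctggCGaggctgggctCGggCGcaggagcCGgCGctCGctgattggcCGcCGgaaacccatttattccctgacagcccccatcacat
Nrl, chr14:55524253-55524352, minus strand: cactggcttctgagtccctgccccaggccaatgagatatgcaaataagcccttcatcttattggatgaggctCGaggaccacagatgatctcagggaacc
Crx, chr7:15879956-15880055, minus strand: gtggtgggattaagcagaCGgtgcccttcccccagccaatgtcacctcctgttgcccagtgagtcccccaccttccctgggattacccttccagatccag
Slc1a3, chr15:8710808-8710907, minus strand: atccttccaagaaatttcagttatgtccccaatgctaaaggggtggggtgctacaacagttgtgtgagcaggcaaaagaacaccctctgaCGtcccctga
Rlbp1, chr7:79387028-79387127, minus strand: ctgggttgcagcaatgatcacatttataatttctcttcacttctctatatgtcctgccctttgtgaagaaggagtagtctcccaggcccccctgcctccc
Olig2, chr16:91225450-91225549, plus strand: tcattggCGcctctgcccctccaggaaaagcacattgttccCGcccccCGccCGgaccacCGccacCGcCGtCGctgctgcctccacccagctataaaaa
Ptgds, chr2:25469750-25469849, minus strand: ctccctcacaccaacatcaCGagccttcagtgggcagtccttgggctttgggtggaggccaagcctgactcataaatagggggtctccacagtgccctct
Aif1, chr17:35176053-35176152, minus strand: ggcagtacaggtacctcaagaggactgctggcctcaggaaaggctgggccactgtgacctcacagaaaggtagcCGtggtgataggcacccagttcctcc

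The 2 marks differed in extent and in how well the experiments matched. H3K4me3 islands numbered 16761 in Exp1 and 20169 in Exp2 and covered 62.0 and 58.7 Mb. H3K4me1 islands numbered 52342 and 37200 and covered 251 and 143 Mb. Of the H3K4me3 length, 80.1% lay inside H3K4me1 in Exp1 and 63.6% in Exp2 (71.8% ± 11.7, SD, n = 2), while H3K4me1 had 19.7% and 26.0% of its length inside H3K4me3 (22.9% ± 4.45). Whole H3K4me3 islands lay inside H3K4me1 in 58.5% of cases in Exp1 and 35.7% in Exp2. Islands were called in bins of 200 bp and the closest neighbours in each list were 800 bp apart, so a narrower gap in either mark cannot show. Read counts are not in the lists, and the depth of each library is unknown. An exact permutation test, two-sided, of 2 libraries against 2 cannot go below p = 0.333, so differences are given as values in each experiment.

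Most promoters with H3K4me3 also had H3K4me1. In Exp1 both marks lay at the starts of 10250 of 17492 protein-coding genes (58.6%), H3K4me3 alone at 358 (2.05%), H3K4me1 alone at 1165 (6.66%) and neither at 5715 (32.7%). In Exp2 the counts were 8985 (51.4%), 1814 (10.4%), 754 (4.31%) and 5922 (33.9%). The means were 55.0% ± 5.11 for both marks, 6.21% ± 5.89 for H3K4me3 alone and 5.49% ± 1.66 for H3K4me1 alone (SD, n = 2). Over bases covered in both experiments, both marks lay at 8721 genes (49.9%), H3K4me3 alone at 1786 (10.2%), H3K4me1 alone at 766 (4.38%) and neither at 6205 (35.5%), and 14 genes had the marks at different starts. H3K4me3 lay at 60.7% of all genes in Exp1 and 61.8% in Exp2, with or without the other mark, and H3K4me1 at 65.3% and 55.8% (60.1% and 54.3% over bases covered in both). H3K4me1 was at 96.6% of H3K4me3-marked genes in Exp1 and 83.2% in Exp2, and H3K4me3 at 89.8% and 92.3% of H3K4me1-marked genes.

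The group with H3K4me3 alone rested on the H3K4me1 library of Exp2. Without that library it held 1.80% of genes in place of 10.2%. Of the 1814 genes with H3K4me3 alone in Exp2, 1460 (80.5%) had both marks in Exp1. Only 258 genes had H3K4me3 alone in each experiment, against 8732 with both marks, 567 with H3K4me1 alone and 5478 with neither. The split also depended on the strength of the islands. With only the stronger part of each list, the islands whose p-value did not exceed the list's median, both marks lay at 20.9% of genes, H3K4me3 alone at 21.1% and H3K4me1 alone at 9.76%. The H3K4me3 islands that touched H3K4me1 had lower p-values in the authors' lists than those that did not, with a median of 1.11e-188 against 4.65e-14 in Exp2.

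The X chromosome stood apart from the autosomes. H3K4me3 alone lay at 21.8% of its 817 genes in Exp1 and 33.3% in Exp2, while the 18 autosomes with listed starts ranged from 0.455% to 1.89% in Exp1 and from 5.80% to 14.3% in Exp2. Both marks lay at 23.1% and 13.6% of X-linked genes and at 61.1% and 53.9% of autosomal genes. The X chromosome held 151 of the 258 genes with H3K4me3 alone in each experiment (58.5%). Among H3K4me3-marked genes, H3K4me1 was at 51.8% on X and 98.3% on autosomes in Exp1, and at 29.5% and 85.2% in Exp2. Examples are Hprt, a purine salvage enzyme gene, and Pgk1, a glycolysis gene. Hprt had H3K4me3 of 3.6 and 3.0 kb and no H3K4me1 within 1 kb of its start in either experiment. In Exp1 H3K4me1 ran on downstream of that H3K4me3 for 8.6 kb. Pgk1 had H3K4me3 of 8.8 and 8.0 kb, and H3K4me1 within 1 kb of its start, 3.8 kb wide, in Exp1 only. Past its H3K4me3, H3K4me1 ran on downstream for 6.4 kb in Exp1 and 3.4 kb in Exp2.

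Other measures moved with the X chromosome. Its H3K4me3 islands were narrower, with medians of 2.6 and 2.2 kb against 3.2 and 2.6 kb on autosomes. They also ranked lower by p-value, with a median rank at 58.1% and 65.2% of the lists against 49.2% and 49.1%. The H3K4me1 islands on X had a median rank at 48.9% in Exp1 and 87.1% in Exp2, against 50.0% and 49.4%, and median widths of 2.8 and 2.4 kb against 3.2 and 3.0 kb. Starts on X had a median of 8 CpG dinucleotides in 300 bases, against 14 on autosomes. Among starts with 16 or more, H3K4me3 alone lay at 68.0% of 278 on X and 11.9% of 9239 on autosomes over bases covered in both experiments. The part of these measures in the difference was not tested. On the Y chromosome Kdm5d, an H3K4 demethylase gene, had H3K4me3 of 1.8 and 0.8 kb and no H3K4me1.

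**Figure D1:**
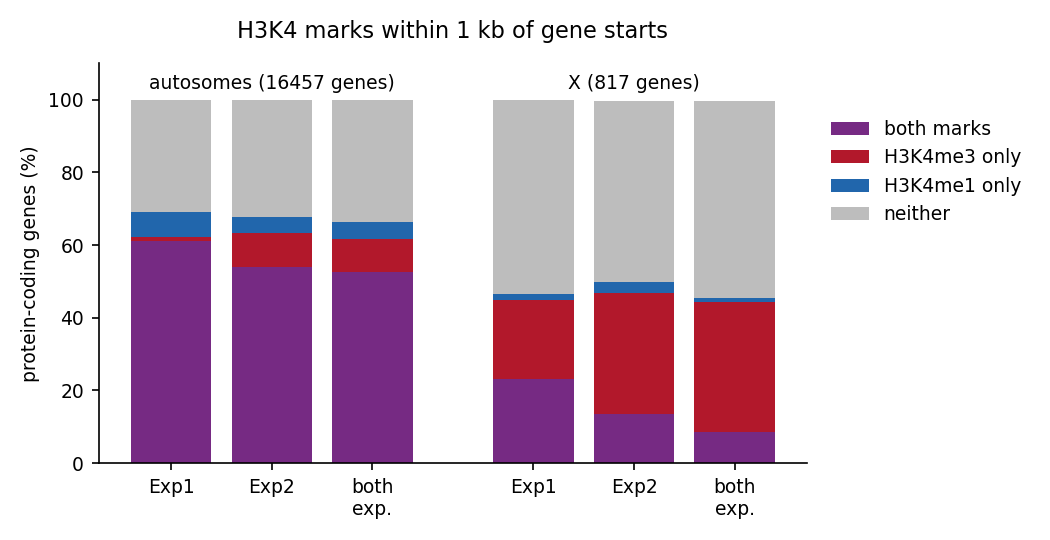
Share of protein-coding genes (percent, stacked bars) with both marks, H3K4me3 only, H3K4me1 only or neither within 1 kb of a start, for autosomes and the X chromosome in Exp1, in Exp2 and over bases covered in both; genes with the marks at different starts are not drawn. The H3K4me3-only share on X is 21.8% in Exp1 and 33.3% in Exp2, above the autosomal 1.06% and 9.35%.

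CpG content separated the classes. The median number of CpG dinucleotides in the 300 bases from 250 before to 50 after a start was 22 for both marks, 18 for H3K4me3 alone, 8 for H3K4me1 alone and 3 for neither, against 13 over all starts. The observed over expected CpG ratio was 0.786, 0.720, 0.353 and 0.181 in the same order. The 330 starts with H3K4me3 alone in each experiment, the stricter choice, had a median of 11 CpG dinucleotides and a ratio of 0.537, below the 13 and 0.567 of all starts, while both marks had 22 and 0.786. Of the genes in this stricter group 58.5% lay on X, where starts had a median of 8 CpG dinucleotides, against 14 on autosomes. The part of the X chromosome in the lower median was not tested. The GGGCGG box of Sp-family factors, searched on both strands, was in 69.1%, 57.0%, 41.1% and 11.5% of starts, and in 46.2% of all. TATAAA, also on both strands, was in 5.81%, 8.30%, 11.3% and 23.6%, and in 12.6% of all. CCAAT, on both strands, was in 37.4%, 41.5%, 32.4% and 39.2%, near the 38.2% of all starts. A match of these letters is a description of the sequence and not a bound site.

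Among starts with H3K4me1, the share that also had H3K4me3 rose from 50.0% of 258 with at most 2 CpG dinucleotides to 98.1% of 2589 with 31 or more. Ptgds, printed above, is an H3K4me1-only promoter of the CpG-poor kind, with 2 CpG dinucleotides in 300 bases. Olig2 (25) and Pou4f2 (18), a ganglion cell factor gene, are exceptions with H3K4me1 alone on CpG-rich sequence. Nrl (2), Crx (3) and Slc1a3 (3) are exceptions of the other kind, with H3K4me3 on CpG-poor sequence.

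**Figure D2:**
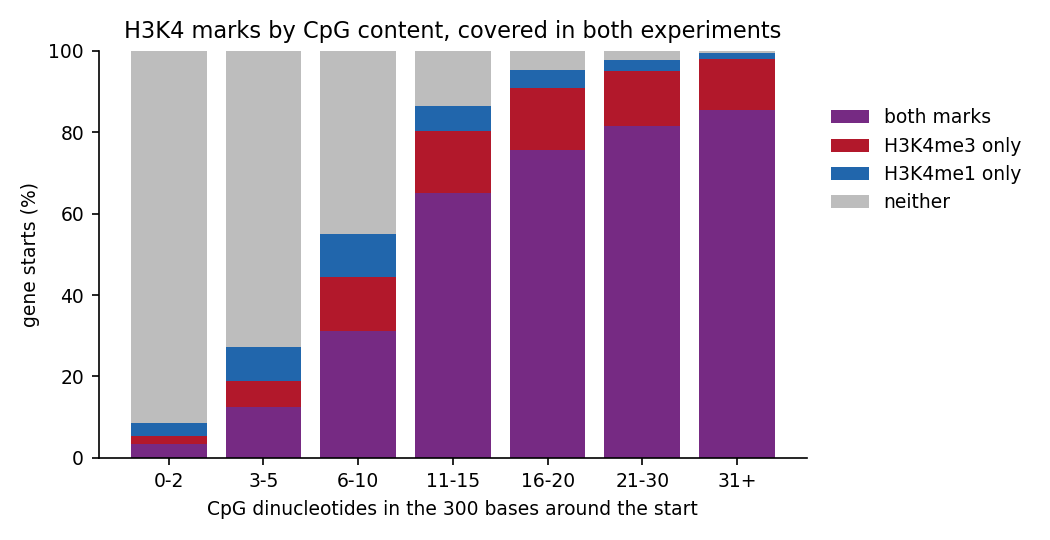
Share of protein-coding gene starts (percent, stacked bars) in each class over bases covered in both experiments, by the number of CpG dinucleotides in the 300 bases around the start. Both marks rise from 3.36% at 0 to 2 CpG dinucleotides to 85.4% at 31 or more, and H3K4me1 alone is highest, at 10.8%, with 6 to 10.

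The repressive marks, read as a separate measure, differed between the classes in different ways. H3K27me3 was less frequent in both classes with H3K4me3 than in both without it, and H3K9me3 was most frequent at genes with neither mark. H3K27me3, the Polycomb mark, was within 1 kb of the start at 12.0% of genes with both marks in Exp1 and 12.1% in Exp2, with genes classed over bases covered in both experiments. With H3K4me3 alone the shares were 12.3% and 10.3%, with H3K4me1 alone 40.3% and 41.6%, and with neither 50.5% and 44.9%, against 26.9% and 24.9% of all genes. H3K9me3, a heterochromatin mark, was at 2.55% and 2.28% of genes with both marks, 7.95% and 6.94% with H3K4me3 alone, 5.87% and 3.92% with H3K4me1 alone, and 36.6% and 33.5% with neither. The repressive islands were called in bins of 5000 and 3000 bp, so they reach a start more easily than the H3K4 islands do.

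Around gene starts the H3K4me1 islands, as called, showed no pair of shoulders with a gap between them. At the 12724 starts with H3K4me3 in both experiments, H3K4me1 covered the start itself in 88.8% of cases in Exp1 and 65.7% in Exp2. It was highest 800 bp into the gene in Exp1 (91.0%) and 600 bp into it in Exp2 (73.1%), and 400 bp before the start it stood at 88.7% and 62.7%. The marks were both longer on the gene side. From 1 to 5 kb into the gene H3K4me1 covered on average 59.2% and 41.4% of positions, 1.63 and 1.73 times its cover over the same distance before the start. For H3K4me3 the ratios were 1.85 and 1.99. At 5 kb into the gene H3K4me3 was down to 8.98% and 6.86% of starts, and H3K4me1 was still at 38.8% and 24.0%.

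**Figure D3:**
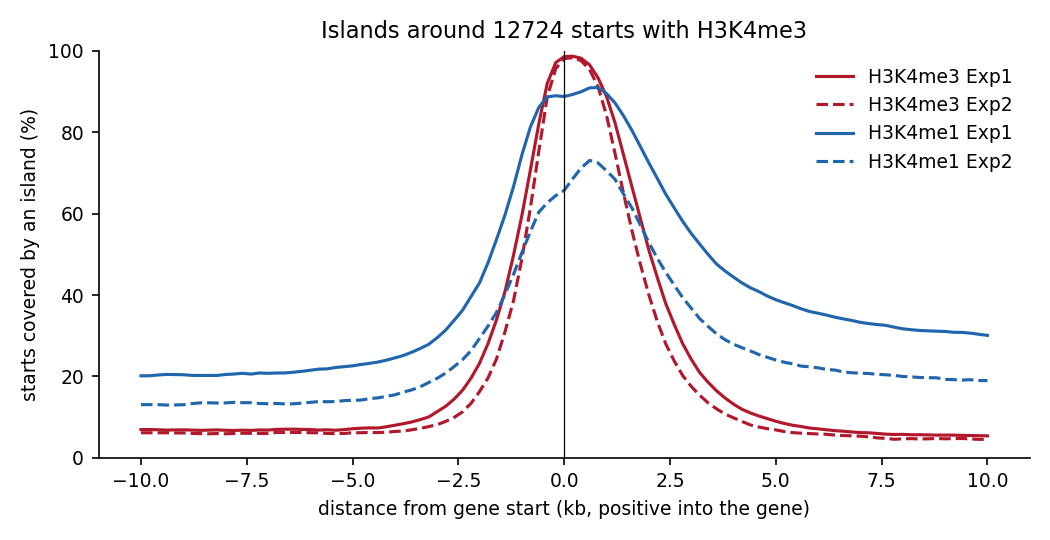
Percent of 12724 starts with H3K4me3 (chosen by that mark, so only the H3K4me1 curves are independent of the choice) that an island covers, by distance from the start in kb, for each mark in Exp1 (solid) and Exp2 (dashed). H3K4me1 covers 88.8% and 65.7% of the starts themselves and reaches farther than H3K4me3 on the gene side.

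Seen from the H3K4me3 regions, flanking H3K4me1 was frequent but often on 1 side. A side was counted as flanked where H3K4me1 took at least 200 bp of the 1 kb outside that edge. In Exp1, 54.3% of 16761 regions had H3K4me1 on both sides, 29.5% on 1 side, 6.51% inside only, and 9.72% had none. In Exp2 the shares of 20165 regions were 32.3%, 32.2%, 10.2% and 25.2%. The means were 43.3% ± 15.6 for both sides and 17.5% ± 11 for none (SD, n = 2). Of the regions flanked on both sides, 90.0% in Exp1 and 82.3% in Exp2 lay wholly inside H3K4me1, and the central 400 bp was free of it in 2.93% and 6.95%. Requiring H3K4me1 over at least 50% of each 1 kb flank lowered the share with both sides flanked from 38.4% to 20.9% over bases covered in both experiments.

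At regions with starts on 1 strand, the gene side was flanked more often than the upstream side. The shares were 77.1% downstream and 67.9% upstream in Exp1 (8437 regions), and 59.9% and 48.0% in Exp2 (8692 regions). Regions flanked downstream only made up 21.4% and 25%, and those flanked upstream only 12.2% and 13.0%.

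H3K4me1 was least frequent at the narrowest H3K4me3 regions. In Exp1 it was lacking at 44.9% of regions under 1 kb, and beyond that with no steady trend, at 11.4%, 5.95%, 11.9% and 11% of regions of 1 to 2, 2 to 4, 4 to 8, and 8 kb and over. In Exp2 the share fell with each step of width, from 55.8% to 33.6%, 22.8%, 11.7% and 6.84%. Regions away from gene starts lacked it in 29.5% and 43.6%, against 3.61% and 15.7% of those within 1 kb of a start. Of the H3K4me3 islands that touched no H3K4me1, those over 2.5 kb from gene starts had median p-values of 1.76e-05 and 2.26e-05 in the authors' lists, against 2.53e-200 and 5.49e-113 for all H3K4me3 islands. In regions of 8 kb and over, H3K4me1 cover 4 kb inside the edge was 79.3% in Exp1 and 70.2% in Exp2, and 0.8 kb inside it was 79.5% and 75.4%. A lower cover towards the middle of wide regions was therefore present in Exp2 and not in Exp1. Outside all edges H3K4me1 fell from 68.3% and 47.5% in the first 200 bp to 30% and 18.1% at 2 kb.

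**Figure D4:**
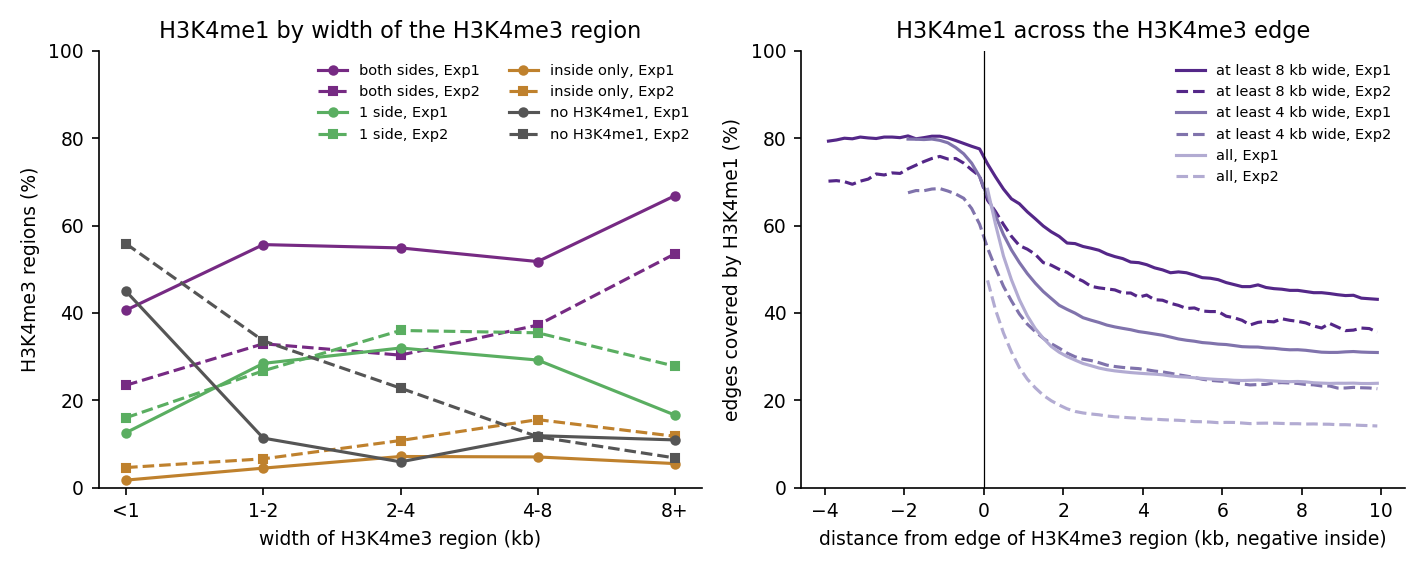
Left, percent of H3K4me3 regions with H3K4me1 on both sides, on 1 side, inside only or absent, by width of the region in kb, in Exp1 (circles, solid) and Exp2 (squares, dashed); right, percent of region edges with H3K4me1 by distance from the edge in kb, inside (negative, wide regions only) and outside. The share without H3K4me1 is highest under 1 kb (44.9% and 55.8%), and H3K4me1 cover falls across the edge in both experiments.

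Genes typical of Müller glia carried H3K4me3 in both experiments at all 11 members with a listed start, against 60.1% of all genes. Both marks lay at 8 of them (all genes 49.9%) and H3K4me3 alone at 3 (all genes 10.2%). At Slc1a3 (chromosome 15, 8634124 to 8710807) H3K4me3 was 6.0 and 4.8 kb wide in Exp1 and Exp2, with H3K4me1 of 2.6 kb in Exp1 and none in Exp2. At the listed start of Rlbp1 (chromosome 7, 79374865 to 79392250) H3K4me3 was 7.2 and 3.6 kb wide, with H3K4me1 of 8.6 kb in Exp1 and none in Exp2. Abca8a, a lipid transporter gene, had H3K4me3 of 5.6 and 3.8 kb and no H3K4me1 in either. The lack of H3K4me1 at the listed starts of Slc1a3 and Rlbp1 was thus a feature of Exp2. The listed start of Rlbp1 lies inside the annotated gene, and at an annotated end of Rlbp1 both marks lay in each experiment.

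Among the Müller glia genes with both marks, the glutamine synthetase gene Glul (chromosome 1, 153899929 to 153909723) had its H3K4me1 on the upstream side. In Exp2 H3K4me3 ran from 1.13 kb before the start to 9.27 kb past it, and an H3K4me1 island of 3.2 kb began 3.73 kb before the start and ended short of it. In Exp1 that island was 8.6 kb wide and reached 3.47 kb past the start. Vim, an intermediate filament gene, had H3K4me3 of 5.0 and 3.6 kb and H3K4me1 of 6.2 and 2.6 kb. Apoe, a lipid carrier gene, had 4.0 and 3.6 kb of H3K4me3 and 11.8 and 7.2 kb of H3K4me1, and Kcnj10, a potassium channel gene, 5.0 and 3.2 kb and 2.6 and 1.4 kb. Gpr37, a receptor gene, had the widest H3K4me3 of the list, 16.2 and 11.8 kb, with H3K4me1 of 3.2 and 2.8 kb. The median width of H3K4me3 over the list was 5.6 and 3.6 kb (all genes 3.4 and 2.8 kb). Sox9 has no listed start and had both marks at a gene end, and Aqp4 had neither at its ends.

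Rod genes combined wide H3K4me3 with long H3K4me1 outside it. All 18 members with a listed start had H3K4me3 in both experiments (all genes 60.1%). Over bases covered in both, 16 had both marks (all genes 49.9%). Cnga1 and Pdc had H3K4me3 alone there (all genes 10.2%), although each had H3K4me1 in Exp1. The median width of H3K4me3 was 13.6 kb in Exp1 and 10.4 kb in Exp2, against 3.4 and 2.8 kb over all genes. H3K4me1 that ran on from the edges of that H3K4me3 had a median of 12.6 and 9.0 kb, both sides summed, against 2.2 and 1.0 kb. It reached 5 kb or more at 13 of 18 rod genes over bases covered in both experiments, and at 11.4% of all H3K4me3-marked genes. Among the retinal cell type lists with over 3 listed starts, the rod list had the highest median of both measures in each experiment. In Exp2 its H3K4me3 width was close to the 10 kb of the retinal progenitor list. The horizontal cell list, with 3 listed starts of which 2 had H3K4me3, had a higher median H3K4me3 width in Exp1. Its medians were 14.9 kb in Exp1 and 8.0 kb in Exp2. The labels do not give the share of rods among the cells, and its part in these values was not tested. In the microglial list 6 of 7 members, Aif1 among them, had neither mark over bases covered in both experiments (all genes 35.5%), although C1qb had H3K4me3 of 2.8 kb in Exp2. C1qc had H3K4me3 of 4.2 and 2.6 kb, with H3K4me1 in Exp2 only.

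The rod genes differed among themselves in where the H3K4me1 lay. At Prph2, which encodes an outer segment protein (chromosome 17, 46910478 to 46924933), H3K4me3 was 29.2 and 28 kb wide and H3K4me1 8.4 and 7.4 kb. That island covered the upstream part of the H3K4me3, from 7.88 kb before the start in both experiments, while the H3K4me1 that ran on outside the H3K4me3 was mostly downstream (6.2 and 5.6 kb, against 0.2 and 0.8 kb upstream). At Crx (chromosome 7, 15865947 to 15879955) H3K4me3 was 26.6 and 25.8 kb wide, and H3K4me1 39.0 kb in Exp1 but 2.8 kb in Exp2, just upstream of the start. Outside the H3K4me3, H3K4me1 ran on upstream for 29.4 kb in Exp1 and not at all in Exp2, and downstream for 6.8 and 4.2 kb. At Nrl (chromosome 14, 55518978 to 55524981) H3K4me3 was 11.8 and 11.4 kb wide, and H3K4me1 ran on downstream of it for 9.6 and 10.4 kb. Tulp1, a photoreceptor protein gene, had 8.0 and 8.8 kb of H3K4me3 and 54.2 and 39.6 kb of H3K4me1, which ran on past both edges. Pdc, which encodes phosducin, had H3K4me3 of 22.0 and 15 kb and H3K4me1 of 13.2 kb in Exp1 only.

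**Figure D5:**
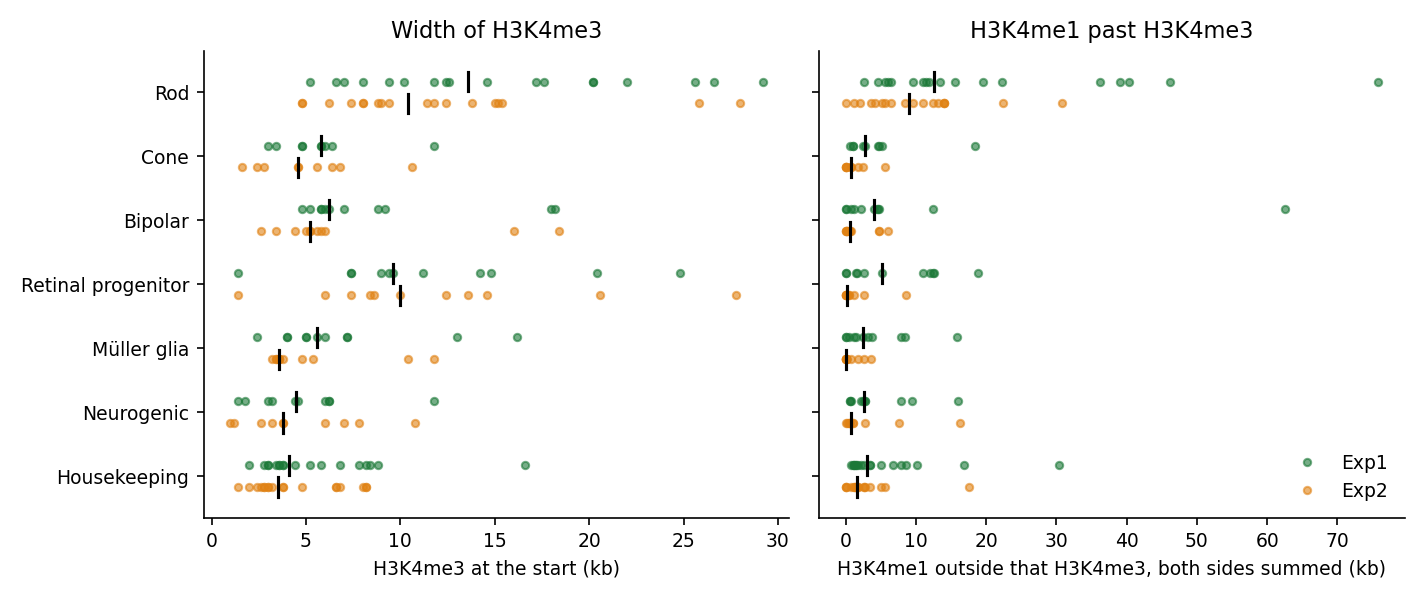
Width of H3K4me3 at the start (left, kb) and length of H3K4me1 running on outside it (right, kb, both sides summed) for each H3K4me3-marked gene of 7 lists, in Exp1 (green) and Exp2 (orange), with black bars at the medians. Rod genes have the highest medians of these lists in Exp1 (13.6 and 12.6 kb) and in Exp2 (10.4 and 9.0 kb), and retinal progenitor genes have wide H3K4me3 (9.6 and 10 kb) with little H3K4me1 past it in Exp2 (0.2 kb).

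Retinal progenitor genes had wide H3K4me3, and the H3K4me1 outside it differed between experiments. All 11 with a listed start had H3K4me3 (all genes 60.1%). Over bases covered in both experiments 10 had both marks (all genes 49.9%) and Meis1 had H3K4me3 alone, although Meis1 had 22.6 kb of H3K4me1 in Exp1. H3K4me3 had a median width of 9.6 and 10 kb, against 3.4 and 2.8 kb over all genes. H3K4me1 past it had a median of 5.2 kb in Exp1, above the 2.2 kb of all genes, and of 0.2 kb in Exp2, below their 1.0 kb. Pax6, the eye-field gene (chromosome 2, 105668896 to 105698410), had H3K4me3 of 24.8 and 27.8 kb, and its widest H3K4me1 at a start was 11.2 and 4.6 kb. Six3 had 20.4 and 20.6 kb with 6.0 and 2.6 kb. At Sox2 (chromosome 3, 34649995 to 34652461) H3K4me3 was 9.4 and 8.6 kb wide, and H3K4me1 of 5.8 and 3.0 kb lay wholly within it.

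Neurogenic genes divided between both marks and H3K4me1 alone. Of 13 with a listed start, 9 had both marks over bases covered in both experiments (all genes 49.9%). Neurod4 had H3K4me3 alone over those bases, although it had 4.0 kb of H3K4me1 in Exp1. Neurog1, Dll3 and Olig2 had H3K4me1 alone, against 4.38% of all genes. Neurog1, Dll3 and Olig2 had no H3K4me3 at a start in either experiment, and their H3K4me1 was 4.4 and 2.4 kb, 1.2 and 1.2 kb, and 7.8 and 5.6 kb wide. At an annotated gene end Dll3 had both marks in each experiment, while Neurog1 and Olig2 had H3K4me1 alone at their ends. At Neurod1 (chromosome 2, 79452637 to 79456636) H3K4me3 of 11.8 and 10.8 kb lay mostly on the gene side, and H3K4me1 of 6.4 and 5.8 kb ran upstream from near the start, to 6.36 and 6.16 kb before it. Further H3K4me1 ran on from the downstream edge of the H3K4me3 for 7.6 and 5.0 kb. Neurog2, a proneural factor gene, had H3K4me3 of 3.0 and 2.6 kb and H3K4me1 of 3.6 kb in both. Atoh7, needed for ganglion cells, had 1.4 and 1.0 kb of H3K4me3 within 2.0 and 1.4 kb of H3K4me1.

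The other neuronal lists held all classes. H3K4me3 was at all 9 cone genes with a listed start and all 11 bipolar genes (all genes 60.1%), with both marks at 7 and 8 (77.8% and 72.7%, all genes 49.9%). The cone opsin genes Opn1sw and Opn1mw and the bipolar genes Trpm1, Cabp5 and Pcp2 had H3K4me3 alone over bases covered in both experiments. Of these only Cabp5 had no H3K4me1 at a start in Exp1, where it was 3.8 kb wide at Opn1sw, 5.0 kb at Opn1mw, 1.6 kb at Trpm1 and 2.8 kb at Pcp2. Opn1mw lies on X, and Pcp2 had both marks at an annotated gene end in each experiment. Otx2, a photoreceptor and bipolar factor gene, had H3K4me3 of 18.2 and 18.4 kb and H3K4me1 of up to 15.2 and 8.4 kb. Of 11 amacrine genes 6 had both marks (54.5%) and of 9 ganglion cell genes 5 (55.6%), both near the 49.9% of all genes. H3K4me1 alone, at 4.38% of all genes, was the class of 3 amacrine genes in each experiment. These were Chat and Th, the acetylcholine and dopamine synthesis genes, and Ptf1a, which had both marks at an annotated gene end in each. Of the ganglion cell genes Pou4f2 and Eomes had H3K4me1 alone at the start in each, and Slc17a6 and Sncg had neither over bases covered in both. Eomes had both marks at an annotated gene end in each experiment. Of 3 horizontal cell genes Onecut1 and Prox1 had both marks and Lhx1 had H3K4me1 alone.

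In the lists of other cell types of the eye, H3K4me3 at listed starts was less frequent than the 60.1% of all genes. Over bases covered in both experiments it lay at the starts of none of 6 astrocyte genes, 12.5% of 8 pigment epithelium genes and 33.3% of 9 endothelial and pericyte genes. Over all genes H3K4me1 alone lay at 4.38% and neither mark at 35.5%. Of the astrocyte genes Gfap, Pax2 and Slc1a2 had H3K4me1 alone at their starts in each experiment, but Slc1a2 had both marks at an annotated gene end in each. Of 8 pigment epithelium genes, Dct, Lrat and Rdh5 had H3K4me1 alone. Mitf had H3K4me3 alone over bases covered in both experiments, although it had 2.6 kb of H3K4me1 in Exp1. At their starts 4, including Rpe65, the retinoid isomerase gene, had neither, but Best1 among them had H3K4me3 at an annotated gene end in each experiment. Of 9 endothelial and pericyte genes, Kdr, Flt1 and Kcnj8 had both marks, Cldn5 had H3K4me1 alone over bases covered in both experiments and both marks in Exp2, and 5 had neither. Pecam1 has no listed start and had neither mark at its ends.

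Broadly expressed genes had H3K4me3 wherever a start was listed. All 18 housekeeping genes with a listed start had it (all genes 60.1%), 14 of them with both marks (77.8%, all genes 49.9%), and B2m, Vcp, Hprt and Pgk1 had H3K4me3 alone over bases covered in both experiments (22.2%, all genes 10.2%). In Exp1 H3K4me1 at the start was 2.6 kb wide at B2m and 5.0 kb at Vcp. Gapdh had 7.8 and 6.8 kb of H3K4me3 inside 24.6 and 24.4 kb of H3K4me1. Of the members with no listed start, Actb had both marks at a gene end, and Ywhaz had H3K4me1 alone at its ends in each experiment. Of 8 genes for writers of H3K4 methylation 7 had both marks (87.5%, all genes 49.9%). Kmt2d had H3K4me3 of 7.4 and 6.2 kb, with H3K4me1 of 4.6 kb within 1 kb of its start in Exp1 only. In Exp2 H3K4me1 ran on downstream of the H3K4me3 at Kmt2d for 0.8 kb. The listed start of Kmt2d lies inside the annotated gene, and at an annotated end of Kmt2d both marks lay in each experiment. Of 5 demethylase genes Kdm1b and Kdm5b had both marks (40%). Kdm1a, Kdm5c and Kdm5d had H3K4me3 alone over bases covered in both experiments, although Kdm1a had 24.8 kb of H3K4me1 in Exp1.

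The widest domains showed how far H3K4me1 can run from a promoter. Casz1, a zinc finger factor gene (chromosome 4, 148804366 to 148954893), lay inside H3K4me1 of 159.6 and 157.0 kb in the 2 experiments, with H3K4me3 of up to 12.8 and 18.8 kb. Gse1, a chromatin protein gene, had H3K4me1 of 78.6 and 89.2 kb and H3K4me3 of 30.8 and 29.0 kb, and Fam222a had H3K4me1 of 64.0 and 56.6 kb. These were the 3 genes with the widest H3K4me1 over bases covered in both experiments. In Exp1 alone other genes exceeded Gse1 and Fam222a, among them Arid1b with 145.4 kb and Ctbp2 with 132.4 kb. At Ccdc85c H3K4me1 of 86.6 kb in Exp1 was broken into several stretches in Exp2, the widest at its start being 7.0 kb. The widest H3K4me3 over a start was 130.0 and 144.8 kb, at Gm21119 on chromosome 8. On chromosome 6, Gm36327, Gm40364, Gm40367 and Gm40369 shared H3K4me3 of 37.0 and 36.6 kb. The 100 bases before the start are identical in the first 3 of these, so reads may not be assignable to a copy and the values are uncertain. Whether Gm21119 has near-identical copies was not checked.

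Of the 10 genes with the widest H3K4me1 and no H3K4me3 over bases covered in both experiments, 4 had H3K4me3 in 1 of them. Hsf2bp and Stard10 had H3K4me3 of 4.6 and 6.8 kb in Exp1, and Gm13090 and Fam83e of 3.6 and 8.2 kb in Exp2. Sipa1l3, Tnk2, Gfy, Clic3, Ptgds and 2610528A11Rik had none within 1 kb of a listed start in either. The listed starts of Sipa1l3 and Tnk2 lie inside the annotated genes, so these values do not cover the outer ends of the genes. Clic3 and Ptgds (chromosome 2, 25466709 to 25470110) share 1 stretch of H3K4me1 of 15.2 and 17.8 kb in the 2 experiments. Among genes with H3K4me3 alone over bases covered in both experiments, Gm21119 and its neighbour Gm40469 had the widest H3K4me3, followed by Stk35, a kinase gene. Stk35 had 29.6 and 28.8 kb of H3K4me3, with H3K4me1 of 45.6 kb at its start in Exp1. H3K4me1 was absent only within 1 kb of that start. Over bases covered in both experiments it ran on downstream of the H3K4me3 for 8.8 kb.

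Away from promoters H3K4me1 stood without H3K4me3 at many sites. Of 33238 H3K4me1 regions covered in both experiments, 13764 (41.4%) overlapped H3K4me3. A further 15388 (46.3%) were distal, over 2.5 kb from any gene start and with no H3K4me3 of either experiment within 1 kb. The centre of 72.8% of the distal regions lay inside a protein-coding gene, and their median distance to a start was 18.2 kb. Distal regions had a median width of 2.4 kb, against 3.0 kb for those overlapping H3K4me3. Within each experiment, where only H3K4me3 of the same experiment removed a region, the number was 31505 in Exp1 and 18162 in Exp2. It was 8667 with only the stronger part of each list, H3K4me3 included. Genes with both marks had at least 1 distal region in or within 10 kb of them in 39.7% of cases, genes with H3K4me1 alone in 32.0%, with H3K4me3 alone in 25.1% and with neither in 8.67%, against 26.9% of all genes. These classes also differ in gene length, with medians of 23.3, 12.3, 31.3 and 7.15 kb in the same order.

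The genes with the most distal regions were long. Camta1, a calcium-responsive factor gene of 802.2 kb, had 34, Ntm, a neural adhesion gene of 968.5 kb, had 32, and Arid1b, a chromatin remodelling gene, and Msi2, an RNA-binding protein gene of stem cells, had 30 each. Per 100 kb, Arid1b had 8.04 and Camta1 4.14. All had both marks at a start. Foxn3, with 29 distal regions, had H3K4me1 alone at its listed start in each experiment, 4.8 and 3.0 kb wide. That start lies inside the annotated gene.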

How the data were processed

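ChIP-seq libraries of Glast+ cells were analysed as the deposited lists of islands, 1 per library. Per the labels' protocols, each immunoprecipitation took the chromatin of 25000 cells, and 500 pg of DNA went into libraries read as 50 bp single ends. The submitters' processing notes name SICER, bedtools 2.17, SAMtools 1.3.1, BWA 0.7.5a and FastQC, with mm10. Their settings are not named there. Each deposited island has a position and the authors' p-value. The sources do not say whether it was adjusted. Input libraries were not analysed here.

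Islands were laid on bins of 200 bp with Python 3.11.15, numpy 2.4.6 and pandas 2.3.3. Both experiments means bases covered in both. Regions under 400 bp were left out of flank and distal counts. A gene counted as having both marks where 1 start had both. Genes without a listed start were classed at both annotated ends. The routines gave the known answer in 10 of 10 checks on simulated islands. Widths at a gene are of the widest island near a start.

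The genes named were a fixed set, the 10 highest by 6 measures, of which some are named, and up to 4 members of the commonest class and up to 4 of others in each list, with widths for a few. Gpr37, Tulp1, C1qb and Socs3 were chosen after their values were seen. Members and lists were chosen with earlier results of these data known.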

Additional observations from a re-analysis of the deposited data

How the results depend on the processing

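Of 111 values under alternatives for the 9 summary shares and counts, 70 moved by less than the SD between experiments, or within 1.5 times for the distal count, and 41 moved further. With islands at or below the median p-value of their file, both marks lay at 20.9% of genes, H3K4me3 alone at 21.1%, H3K4me1 alone at 9.76% and neither at 48.0%, 48.1% of H3K4me3 length lay in H3K4me1 and 16.4% the other way, 45.9% of H3K4me3 regions lacked H3K4me1 and 8667 regions were distal. The cause was not tested. With at least 50% of the window covered, both marks were at 38.9%, H3K4me3 alone at 18.1% and neither at 38.2%, and with 50% of the flank covered 20.9% of regions were flanked on both sides. A mark in either experiment gave 60.3%, 2.01%, 6.34% and 31.3% for both, H3K4me3 alone, H3K4me1 alone and neither. Genes with no other gene within 5 kb (6416) had both marks at 29.1% and neither at 57.7%. Neither mark was at 34.4% with windows of 2.5 kb, 33.7% on autosomes, and 36.5% with the first listed start of each gene, an alternative chosen after seeing the data. Leaving out 1 replicate, of both marks or of 1, gave ranges of 50.0% to 58.6% for both marks, 1.80% to 10.9% for H3K4me3 alone, 3.40% to 6.93% for H3K4me1 alone, 32.7% to 35.1% for neither, 57.1% to 87.7% of H3K4me3 length in H3K4me1, 15.7% to 31% of H3K4me1 length in H3K4me3, 32.3% to 54.3% of regions flanked on both sides, 9.72% to 25.2% without H3K4me1 and 18162 to 31505 distal regions. Pairing the marks within each experiment as a replicate block gave 55.0% for both marks, 33.3% for neither and 24833.5 distal regions. In these distal counts by experiment only H3K4me3 of the same experiment removed a region. The experiment numbers were not shown to pair the libraries, since over 1460504 bins the differences between experiments of the 2 marks had a Pearson r of 0.04. Unknown depth limits every absence of a mark.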

Other observations

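Starts of long non-coding RNA genes showed another balance of the marks. Of 9533 such genes with a listed start, both marks lay at 18.6% in Exp1 and 16.6% in Exp2, H3K4me3 alone at 1.07% and 3.72%, and H3K4me1 alone at 18.2% and 9.84%. Of the genes with H3K4me1, 50.6% and 62.8% also had H3K4me3, against 89.8% and 92.3% of protein-coding genes with H3K4me1. Some of these starts lie near those of protein-coding genes, and the share that does was not counted.

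Genes of injury response and of pluripotency were marked in part. Of 10 reactive and immediate early genes with a listed start, 8 had both marks, among them Fos, Jun, Junb, Stat3 and Socs3. Socs3, a brake on cytokine signalling, had H3K4me3 of 9.4 and 4.8 kb and H3K4me1 of 15.8 and 10.4 kb. Lcn2, which encodes lipocalin, had H3K4me1 alone of 3.4 and 4.2 kb, and Serpina3n had neither mark. Of 8 pluripotency genes, Lin28a, Klf4 and Esrrb had both marks, Pou5f1 (4.8 and 4.8 kb) and Utf1 (3.6 and 1.4 kb) had H3K4me1 alone in each experiment, and 3 including Nanog had neither. Against all protein-coding genes, both marks lay at 80.0% and 37.5% of these lists, and at 49.9% of the whole.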
